A study of Mus musculus with 8 samples.

Results

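This report concerns 10 imprinted mouse genes, read in liver on Affymetrix gene arrays. The members are Meg3, Rian, Mirg, Dlk1 and Dio3 of the Dlk1 to Dio3 cluster and, at other loci, Sgce, Peg3, Mest, Plagl1 and Grb10. They were selected on earlier results of the same arrays, that is on the Tak1/Casp8 minus Tak1/Rip3 differences described here, and a probe set belonged to a member where the platform annotation gave it exactly 1 symbol, that of the member. Of the 10, 9 were measured, through 97 of the 223771 probe sets, and Mirg had 0 such probe sets and has no value. No filter on low values was set, so all 9 stand beside the 19552 genes tested. The groups were 4 mice lacking both TAK1 (gene Map3k7) and caspase 8 in liver parenchymal cells (LPC), named Tak1/Casp8, and 4 mice lacking TAK1 in LPC and carrying the Rip3-/- genotype (gene Ripk3), named Tak1/Rip3. All 8 mice were males aged 6 weeks and all had lost TAK1 in LPC, and liver tissue was taken, which holds other cells besides LPC. The Rip3-/- genotype is not limited to LPC in the labels, so the groups also differ in Ripk3 in those other cells. The sources used here do not name the driver of the LPC deletion. Livers with intact TAK1 are not analysed here, and a gene lower in the Tak1/Casp8 livers may equally be read as higher in the Tak1/Rip3 livers. The comparison was made by the study to find genes on which apoptosis and necrosis act differently.

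Imprinted genes are read mainly from the chromosome of 1 parent, because a differentially methylated region silences the other copy. In the Dlk1 to Dio3 cluster the maternal chromosome makes the noncoding RNAs Meg3, Rian and Mirg, which carry snoRNAs and miRNAs, and the paternal chromosome makes the proteins DLK1, RTL1 and DIO3. Many imprinted genes regulate fetal growth, are strongly read in fetal liver and are turned down after birth, and several return in regenerating liver and in liver tumours.

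The sequences of the cluster are given to show what lies at the starts of its genes and within its noncoding RNAs. RefSeq promoters of build GRCm38.p6 were available for 9 of the 10 members, and those of the 4 measured cluster genes are printed 5′ to 3′, from 250 bases before to 50 after the annotated start, all on the + strand of chromosome 12. Capitals mark matches, on either strand, to CCAAT, to the GC box GGGCGG, to the full cAMP response element TGACGTCA, to TATAAA, to TGCCGC, the core letters bound by the imprint-keeping factor ZFP57, or to CACGTG.
The Meg3 window is chr12:109540746-109541045 and the Rian window chr12:109603695-109603994, while the Dlk1 window is chr12:109452573-109452872 and the Dio3 window chr12:110278980-110279279.
Meg3: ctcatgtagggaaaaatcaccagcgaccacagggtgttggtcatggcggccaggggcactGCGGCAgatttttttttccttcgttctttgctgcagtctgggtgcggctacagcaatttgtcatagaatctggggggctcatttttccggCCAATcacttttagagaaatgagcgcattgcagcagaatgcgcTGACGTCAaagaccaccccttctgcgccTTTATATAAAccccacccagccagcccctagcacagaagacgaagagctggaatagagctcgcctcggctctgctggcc
Rian: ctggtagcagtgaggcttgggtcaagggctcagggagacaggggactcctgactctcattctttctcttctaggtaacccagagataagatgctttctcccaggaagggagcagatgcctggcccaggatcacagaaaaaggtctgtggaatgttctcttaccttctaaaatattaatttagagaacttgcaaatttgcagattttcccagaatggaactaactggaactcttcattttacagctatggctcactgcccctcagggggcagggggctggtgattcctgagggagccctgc
Dlk1: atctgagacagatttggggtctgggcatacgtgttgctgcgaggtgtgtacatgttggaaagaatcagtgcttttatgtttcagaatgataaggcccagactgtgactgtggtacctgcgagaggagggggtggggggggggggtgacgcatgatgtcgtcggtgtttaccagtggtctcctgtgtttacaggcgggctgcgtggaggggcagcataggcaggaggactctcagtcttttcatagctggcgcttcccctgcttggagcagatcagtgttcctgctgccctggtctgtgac
Dio3: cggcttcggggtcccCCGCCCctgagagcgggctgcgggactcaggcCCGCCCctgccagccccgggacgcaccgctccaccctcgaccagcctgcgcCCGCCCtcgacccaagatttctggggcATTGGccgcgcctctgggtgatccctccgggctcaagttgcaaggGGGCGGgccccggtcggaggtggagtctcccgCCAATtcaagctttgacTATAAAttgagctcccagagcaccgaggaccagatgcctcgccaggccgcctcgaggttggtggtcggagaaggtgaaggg
RefSeq gave 2 promoters for Meg3, of which only the first listed is printed and counted here. That Meg3 window held 13 CpG, 1 TGACGTCA with its leftmost base at position -57 from the start and 1 CCAAT at position -100. It also held 1 TGCCGC on the - strand at position -190 and 2 overlapping TATAAA matches at positions -29 and -25. TGACGTCA was found in 1.88% of the 27025 RefSeq promoters of the same length, CCAAT in 37.9%, TGCCGC in 11.6% and TATAAA in 14.2%. The Dio3 window held 25 CpG, 4 GGGCGG, 2 CCAAT and 1 TATAAA, where GGGCGG was in 35.9% of promoters. The Rian window held 0 CpG and the Dlk1 window 9, against a median of 7, and neither held any of the 6 motifs. CACGTG, in 7.24% of promoters, was in none of the 4 windows. Such matches are letters, and binding was not measured.

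RefSeq places 101 genes between Dlk1 and Dio3, 61 of them miRNA genes. The 9 mature miRNAs that lie on the + strand within the Meg3 and Rian spans are printed because those transcripts showed the large differences described below, and their seeds (bases 2 to 8) are in capitals. No probe set had a miRNA gene of the cluster as its only symbol, so their levels were not measured, and no seed is shared between them.
miR-1906 (Meg3 span): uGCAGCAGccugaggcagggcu
miR-770-5p (Meg3 span): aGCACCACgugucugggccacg
miR-770-3p (Meg3 span): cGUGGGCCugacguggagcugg
miR-341-5p (Rian span): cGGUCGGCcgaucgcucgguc
miR-341-3p (Rian span): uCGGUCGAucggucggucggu
miR-1188-5p (Rian span): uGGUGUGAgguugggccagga
miR-1188-3p (Rian span): uCCGAGGCuccccaccacacccugc
miR-370-5p (Rian span): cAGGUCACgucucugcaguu
miR-370-3p (Rian span): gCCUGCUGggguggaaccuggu

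The Tak1/Casp8 livers held 3.88-fold less Meg3 signal than the Tak1/Rip3 livers and 3.20-fold less Rian signal. Sgce, at another imprinted locus, was 2.19-fold higher. The other 6 measured members differed by between -0.51 and 0.23 on the log2 scale, and their groups overlapped. Because the members were proposed with this contrast known, these differences are a description and carry no test. Meg3, Rian and Sgce, 3 of the 9, were among the genes called by limma at an adjusted p under 0.05 over all genes, where 6.69% of genes were called, and nothing is read from that count. The same 3 were the members whose groups did not overlap. Meg3 and Rian lay below, as did 8.3% of all genes, and Sgce lay above, as did 6.33%, or 14.6% in either direction. Every difference is Tak1/Casp8 minus Tak1/Rip3 in log2 RMA intensity, with its standard error (SE) from the limma fit.

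**Figure D1:**
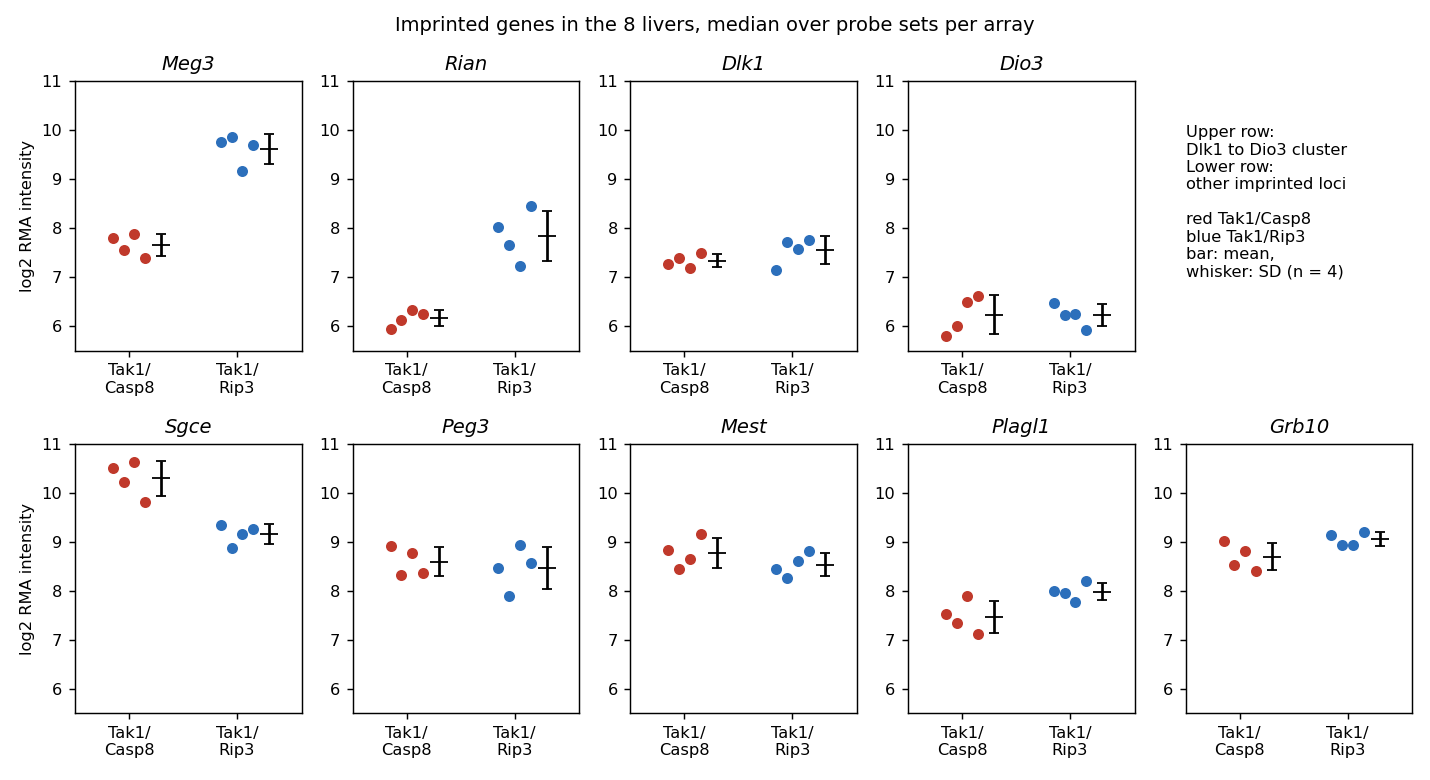
Log2 RMA intensity of the 9 measured members in each array, as the median over probe sets, with 1 point per mouse and the mean and SD (n = 4) beside each group. Meg3 and Rian sit lower in all 4 Tak1/Casp8 livers (Meg3 7.39 to 7.88) than in all 4 Tak1/Rip3 livers (9.16 to 9.86), Sgce sits higher, and the other 6 overlap.

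Meg3, a maternally expressed long noncoding RNA with growth-restraining activity in human tumour cells, read 7.81, 7.55, 7.88 and 7.39 in the Tak1/Casp8 livers, against 9.76, 9.86, 9.16 and 9.69 in the Tak1/Rip3 livers. The highest Tak1/Casp8 array lay more than 1 log2 unit below the lowest Tak1/Rip3 array. The means were 7.66 ± 0.23 and 9.61 ± 0.31 (SD, n = 4 each), a difference of -1.96 ± 0.17 (SE). By size this was the 25th lowest difference of the 19552 genes.

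All 5 Meg3 probe sets were lower in every Tak1/Casp8 array than in any Tak1/Rip3 array, as were 6.53% of all probe sets. Their differences spanned -3.26 to -0.93, so the gene value depends on which parts of the transcript are read. Probe set 10398327 differed most, with 7.81, 7.55, 7.88 and 7.39 in the Tak1/Casp8 livers and 11.21, 11.29, 10.20 and 10.98 in the Tak1/Rip3 livers. The smallest difference was that of probe set 10398330, with 8.36, 8.80, 8.78 and 8.81 in the Tak1/Casp8 livers and 9.76, 9.86, 9.16 and 9.69 in the Tak1/Rip3 livers. The median over probe sets came from probe set 10398327 in the Tak1/Casp8 arrays and from 10398330 in the Tak1/Rip3 arrays, so -1.96 mixes a pair of unlike probe sets. With the brightest Meg3 probe set the difference was -2.39, and with the mean over probe sets -2.10.

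Rian, the maternally expressed RNA next along the cluster and a host of snoRNAs, was read by 1 probe set. It gave 5.95, 6.13, 6.34 and 6.24 in the Tak1/Casp8 livers, against 8.01, 7.66, 7.24 and 8.44 in the Tak1/Rip3 livers, and the groups did not overlap. The means were 6.16 ± 0.17 and 7.84 ± 0.51 (SD, n = 4 each), a difference of -1.68 ± 0.22 (SE), the 54th lowest of all genes. The 4 Tak1/Casp8 values lay under the lower quartile of all probe sets in those arrays (6.47 to 6.49), where RMA compresses differences and a fold is uncertain. Among the Tak1/Rip3 livers replicate 3 was lowest for both Meg3 and Rian, and replicate 4 was highest for Rian while replicate 2 was highest for Meg3.

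Dlk1 and Dio3, paternally expressed genes at either end of the cluster, had overlapping groups. Dlk1, a membrane protein with EGF-like repeats made by fetal hepatoblasts, read 7.27, 7.39, 7.19 and 7.48 in the Tak1/Casp8 livers and 7.15, 7.72, 7.58 and 7.76 in the Tak1/Rip3 livers, with overlapping groups and a difference of -0.22 ± 0.14 (SE). Its 6 probe sets disagreed. The brightest pair, at 8.66 to 10.22 over the 8 arrays, differed by 0.29 and 0.40, while the 4 dimmer ones differed by -0.50 to -0.17, so the sign of the Dlk1 value rests on the choice of probe sets (0.29 with the brightest). Dio3, the deiodinase that inactivates thyroid hormone, read 5.80, 6.01, 6.50 and 6.62 in the Tak1/Casp8 livers and 6.47, 6.24, 6.25 and 5.93 in the Tak1/Rip3 livers. The means were 6.23 ± 0.39 and 6.22 ± 0.22 (SD, n = 4 each), a difference of 0.01 ± 0.19 (SE). Of these 8 median values 6 lay under the lower quartile, which limits what can be read from them. Its 4 probe sets split into 2 higher and 2 lower. The brightest, at a mean level of 7.97 and under the quartile in 0 arrays, differed by 0.23 ± 0.30 (SE) with overlapping groups.

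**Figure D2:**
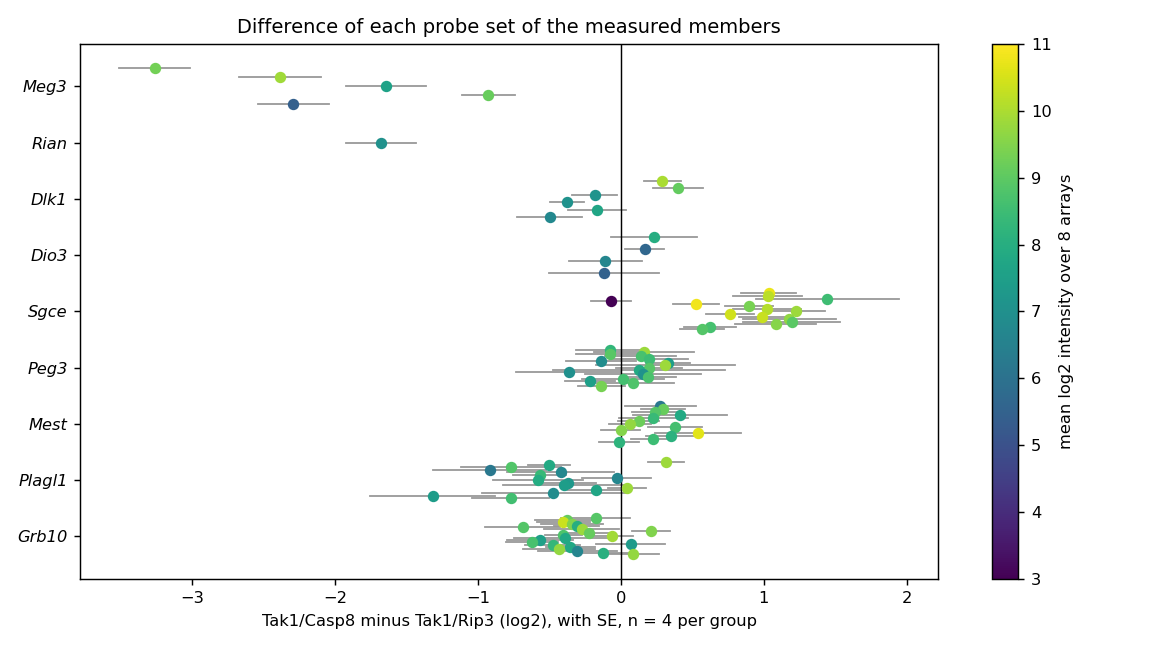
Difference of each member probe set, Tak1/Casp8 minus Tak1/Rip3 in log2 units, with its SE (n = 4 per group), coloured by mean log2 intensity. The 5 Meg3 points (-3.26 to -0.93) lie left of 0 and 14 of the 15 Sgce points right of it, while the bright Dlk1 probe sets lie right of 0 and the dim ones left.

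Among the measured genes between Dlk1 and Dio3 and 13 flanking genes, Meg3 and Rian had the largest differences. Both were selected on this contrast, so that ranking is a description and no support for a change limited to the cluster. Rtl1, the retrotransposon-derived paternal gene between them, read 5.40 to 5.59 in the Tak1/Casp8 livers and 5.63 to 5.90 in the Tak1/Rip3 livers, without overlap between the groups and with a difference of -0.23 ± 0.10 (SE) that did not pass (limma adjusted p = 0.202) at a level under the lower quartile of every array. AF357341, the remaining measured symbol between Dlk1 and Dio3, was also under the lower quartile and differed by -0.09 ± 0.14. Of 14 listed flanking genes outside the imprinted cluster 13 were measured, and their median difference was 0.05, against 0.01 over all genes. Of the 13, 1 passed, where 6.69% of all genes were called. Hsp90aa1, the inducible cytosolic HSP90, was the flanking gene that passed, with 11.04, 11.29, 10.91 and 11.29 in the Tak1/Casp8 livers, against 11.78, 11.42, 11.67 and 11.59 in the Tak1/Rip3 livers (-0.48 ± 0.12 SE, limma adjusted p = 0.0405). That call was lost without Tak1/Casp8 replicate 1, 2 or 3 or Tak1/Rip3 replicate 1, 3 or 4 (adjusted p up to 0.119) and when arrays were shifted to 1 median (0.0589). The nearest flanking genes measured, Begain before Dlk1 and Ppp2r5c after Dio3, differed by 0.09 and -0.06. Cinp, Wdr20 and Degs2 had the next smallest p-values of the list and differed by -0.31, 0.16 and -0.19 without passing.

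**Figure D3:**
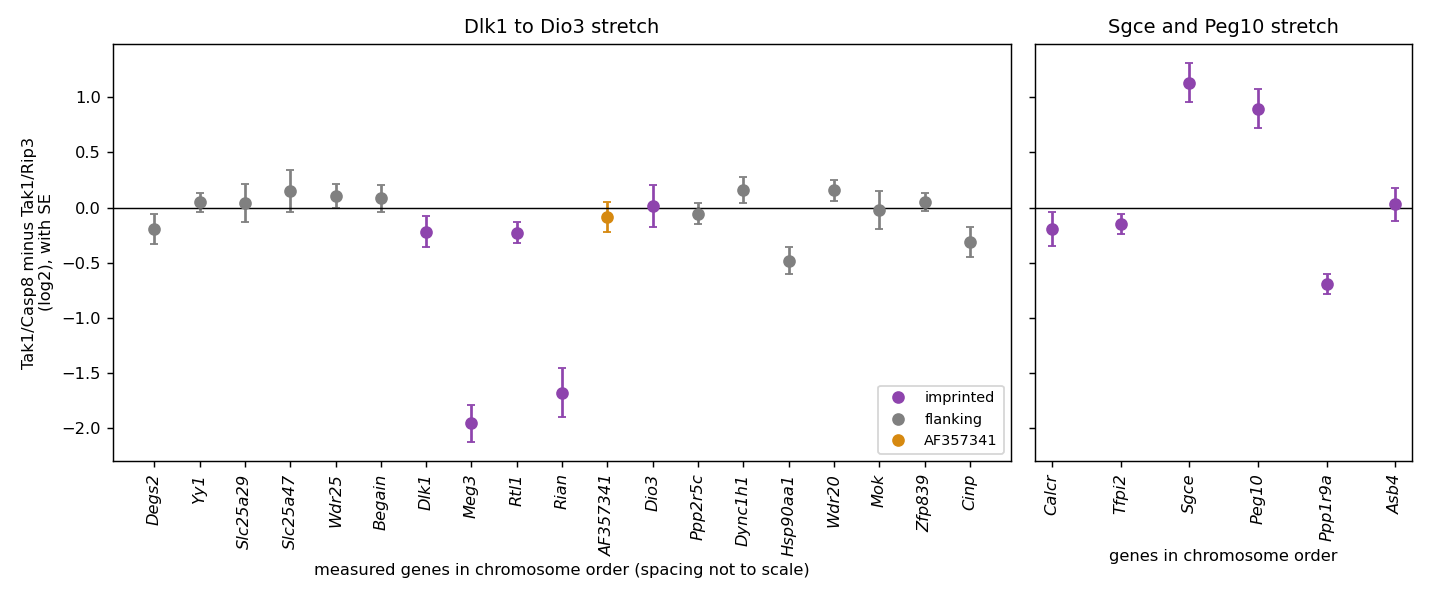
Difference of measured genes in chromosome order, Tak1/Casp8 minus Tak1/Rip3 in log2 units with SE (n = 4 per group), for the Dlk1 to Dio3 cluster with its flanking genes (left) and the stretch around Sgce (right); spacing is not to scale. Meg3 (-1.96) and Rian (-1.68), which were selected on this contrast, lie below flanking genes between -0.48 and 0.16. Sgce (1.13), also selected on it, and Peg10 (0.90) lie above 0 beside Ppp1r9a (-0.69).

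Sgce, the paternally expressed gene for epsilon-sarcoglycan on chromosome 6, went the other way from Meg3. It read 10.51, 10.21, 10.64 and 9.81 in the Tak1/Casp8 livers, against 9.35, 8.87, 9.17 and 9.26 in the Tak1/Rip3 livers. All Tak1/Casp8 values lay above all Tak1/Rip3 values, with means of 10.29 ± 0.37 and 9.16 ± 0.21 (SD, n = 4 each) and a difference of 1.13 ± 0.18 (SE). Of its 15 probe sets 14 were higher in every Tak1/Casp8 array, as were 4.89% of all probe sets, by 0.53 to 1.45. The remaining probe set, at 2.56 to 3.10 in the 8 arrays, had the lowest level of the 97 and differed by -0.07. With the brightest Sgce probe set the difference was 0.53.

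Peg10, a paternally expressed retrotransposon-derived gene that starts head to head with Sgce, is no member and was tested. It read 8.39, 8.02, 8.69 and 7.84 in the Tak1/Casp8 livers and 7.37, 7.15, 7.28 and 7.55 in the Tak1/Rip3 livers, without overlap. Its signal rose 1.86-fold (0.90 ± 0.18 SE, limma adjusted p = 0.0145), and the call held in all 8 fits that left out 1 array. The 4 Tak1/Casp8 livers stood in the same order for Sgce and Peg10, from replicate 3 through 1 and 2 to 4. On the other side of Peg10, the maternally expressed Ppp1r9a, which encodes neurabin, an actin-binding protein of neurons, fell to 6.77, 6.71, 6.93 and 6.68 in the Tak1/Casp8 livers, against 7.44, 7.54, 7.42 and 7.46 in the Tak1/Rip3 livers (-0.69 ± 0.09 SE, limma adjusted p = 0.00248). With its brightest probe set that difference was -0.39 (adjusted p = 0.0674). Calcr, Tfpi2 and Asb4, further imprinted genes of the stretch, differed by -0.19, -0.15 and 0.03 and did not pass.

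Plagl1 and Grb10 were lower on average in the Tak1/Casp8 livers by less than Meg3 or Rian. Plagl1, a zinc finger transcription factor that binds other imprinted genes, read 7.52, 7.35, 7.89 and 7.12 in the Tak1/Casp8 livers and 8.00, 7.95, 7.77 and 8.19 in the Tak1/Rip3 livers. Only replicate 3 of the Tak1/Casp8 livers reached into the Tak1/Rip3 range, and the difference was -0.51 ± 0.16 (SE). Of its 15 probe sets 13 were lower, by up to -1.32, but the bright ones at about 9.8 differed by 0.32 and 0.04, the last being the value with the brightest probe set. Grb10, the adaptor that dampens insulin and IGF1 receptor signalling, read 9.01, 8.52, 8.82 and 8.41 in the Tak1/Casp8 livers and 9.13, 8.93, 8.94 and 9.20 in the Tak1/Rip3 livers. The groups overlapped through Tak1/Casp8 replicate 1, the difference was -0.36 ± 0.14 (SE), and 18 of 21 probe sets were lower. For both genes Tak1/Casp8 replicate 4 was the lowest array and Tak1/Rip3 replicate 4 the highest.

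Peg3 and Mest differed by little more than their own spread or less. Peg3, a paternally expressed zinc finger protein, read 8.92, 8.32, 8.78 and 8.37 in the Tak1/Casp8 livers and 8.46, 7.90, 8.94 and 8.57 in the Tak1/Rip3 livers (0.13 ± 0.21 SE). Its 17 probe sets split into 11 higher and 6 lower, from -0.36 to 0.33. Mest, a paternally expressed protein of the alpha/beta hydrolase fold, read 8.84, 8.44, 8.66 and 9.15 in the Tak1/Casp8 livers and 8.45, 8.27, 8.60 and 8.82 in the Tak1/Rip3 livers (0.23 ± 0.17 SE), with 11 of 13 probe sets higher. In both groups Mest was highest in replicate 4 and lowest in replicate 2. Next to Mest, the imprinted genes Copg2 and Klf14 differed by -0.11 and 0.09, next to Peg3 Zim1 differed by -0.10, and next to Grb10 Ddc differed by -0.46 (limma adjusted p = 0.218), none of them passing. Replicate numbers only name arrays and pair no mice across groups.

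Beyond the members, 50 further imprinted genes were listed from knowledge of mouse imprinting, with results such as those of Igf2, H19 and Slc22a3 already known. Of the 43 measured, 7 passed the limma test, of which 1 rose and 6 fell in the Tak1/Casp8 livers, where 2.64% of all genes were called higher and 4.05% lower. Igf2, H19 and Slc22a3 are among the 6 that fell, so these counts were partly known beforehand and nothing is read from them. The median difference of the 43 was -0.10, against 0.01 over all genes, and 9 of them lay under the lower quartile of every array. By parental origin, 1 of 17 measured paternally expressed genes was higher and 1 lower, and of 26 maternally expressed genes 0 were higher and 5 lower, with medians of 0.01 and -0.13. H19 and Slc22a3 are among those 5, and Slc22a3 is listed by its origin in placenta. Which parental copy was read in these livers was not measured, so no pattern by origin is read. Without Tak1/Rip3 replicate 1 the 7 became 4, and with the brightest probe sets also 4.

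The largest differences of that list were in the domain of Igf2 and H19. Igf2, the fetal growth factor, read 6.93, 7.10, 7.66 and 7.35 in the Tak1/Casp8 livers, against 11.92, 11.36, 9.59 and 12.17 in the Tak1/Rip3 livers (-4.00 ± 0.47 SE, limma adjusted p = 0.00128). H19, its maternally expressed noncoding neighbour, read 10.52, 7.97, 11.29 and 8.12 in the Tak1/Casp8 livers, against 13.19, 12.79, 12.38 and 13.20 in the Tak1/Rip3 livers (-3.42 ± 0.66 SE, limma adjusted p = 0.0134, and 0.0639 with the brightest probe set). H19 thus spanned 7.97 to 11.29 within the Tak1/Casp8 group, where Meg3 spanned 7.39 to 7.88. In the Tak1/Rip3 livers replicate 3 was the lowest array for Meg3, Rian, Igf2, H19 and Afp, the fetal albumin relative, which read 7.07, 6.70, 6.76 and 5.98 in the Tak1/Casp8 livers, against 10.07, 9.54, 9.50 and 11.04 in the Tak1/Rip3 livers.

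**Figure D4:**
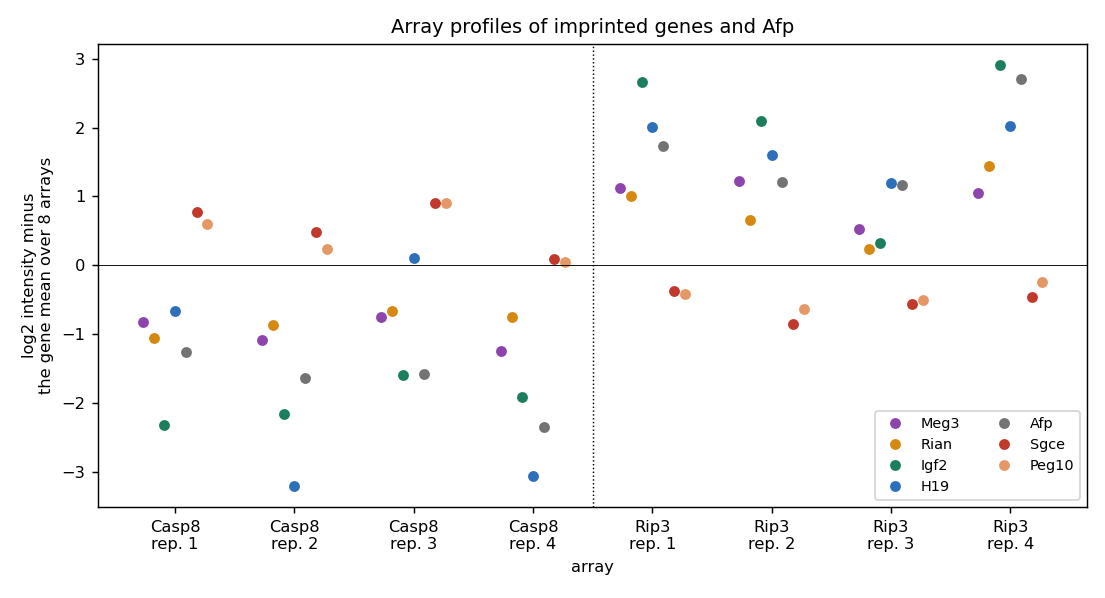
Log2 intensity of Meg3, Rian, Igf2, H19, Afp, Sgce and Peg10 in each array, minus the mean of the gene over the 8 arrays, with Tak1/Casp8 livers left of the dotted line and Tak1/Rip3 livers right. Meg3, Rian, Igf2 and Afp lie below 0 in all 4 Tak1/Casp8 livers, H19 in 3 of them, and Sgce and Peg10 lie above 0; Tak1/Rip3 replicate 3 is the lowest of its group for Meg3 (9.16), Rian (7.24), Igf2 (9.59), H19 (12.38) and Afp (9.50).

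Further maternally expressed genes that passed were lower by smaller amounts. Slc22a3, a cation transporter that is maternally expressed in placenta, read 7.93, 7.70, 7.18 and 7.94 in the Tak1/Casp8 livers and 8.91, 9.24, 8.39 and 8.48 in the Tak1/Rip3 livers (-1.07 ± 0.22 SE, limma adjusted p = 0.0169, and 0.0574 without Tak1/Rip3 replicate 1). Phlda2, a pleckstrin homology protein that restrains placental growth, differed by -0.76 ± 0.19 (limma adjusted p = 0.0429). Igf2r, the receptor that clears IGF2, differed by -0.34 ± 0.09 (limma adjusted p = 0.0419), with 9.95 to 9.99 in the Tak1/Casp8 livers and 10.20 to 10.41 in the Tak1/Rip3 livers. The Phlda2 call held only without Tak1/Rip3 replicate 3 and the Igf2r call only without Tak1/Rip3 replicate 2 among the 8 fits that left out 1 array (adjusted p up to 0.122 and 0.114), and both calls ended when arrays were shifted to 1 median (0.0536 and 0.0711). Airn, the noncoding RNA antisense to Igf2r, and Slc38a4, an amino acid transporter, had the next smallest p-values of the paternally expressed genes and did not pass (-0.64 and 0.30, limma adjusted p = 0.0588 and 0.0759). The labels do not state whether labelling kept strand, so reads of Airn and Igf2r could not be separated with certainty.

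**Figure D5:**
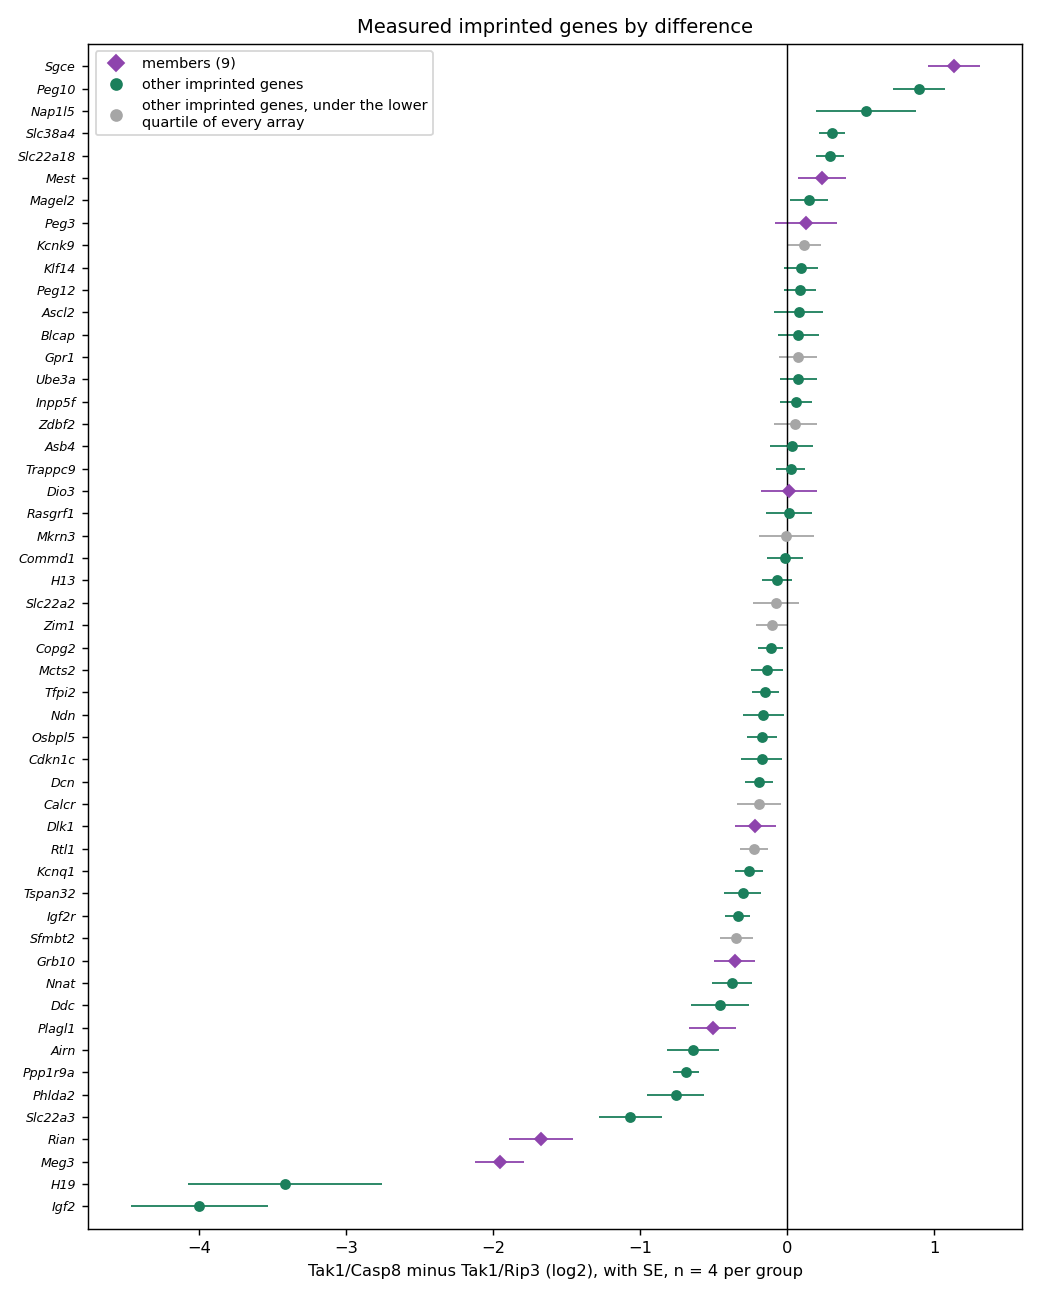
Difference of the 9 members (diamonds) and 43 other measured imprinted genes (circles), Tak1/Casp8 minus Tak1/Rip3 in log2 units with SE (n = 4 per group), ordered by size, with genes under the lower quartile of every array in grey. Igf2 (-4.00), H19 (-3.42), Meg3 (-1.96) and Rian (-1.68) lie at the low end and Sgce (1.13) and Peg10 (0.90) at the high end.

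Among 18 listed factors that keep imprints or silence fetal liver genes, 17 were measured. Of these 2 passed, both lower in the Tak1/Casp8 livers, where 4.05% of all genes were called lower. The list was chosen with earlier results known, so nothing is read from that count. Uhrf1, which brings DNMT1 to newly copied DNA, read 7.83, 7.27, 6.94 and 7.11 in the Tak1/Casp8 livers and 8.47, 8.12, 8.13 and 8.14 in the Tak1/Rip3 livers (-0.93 ± 0.18 SE, limma adjusted p = 0.0129). Dnmt1, the maintenance DNA methyltransferase, differed by -0.51 ± 0.11 (limma adjusted p = 0.0239), a call lost without Tak1/Casp8 replicate 1, 2 or 3 or Tak1/Rip3 replicate 1 or 3 (up to 0.0729). Its brightest probe set differed by -1.998 with adjusted p = 0.431. The de novo methyltransferases Dnmt3b and Dnmt3a differed by -0.42 and -0.38 and did not pass (limma adjusted p = 0.054 and 0.0561). Zfp57 and Trim28, which guard imprints, differed by 0.01 and 0.08. Zhx2, which silences Afp and H19 after birth in mouse liver, differed by 0.14, and Zbtb20, which silences Afp, by 0.18. The median of the list was -0.09.

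Partners of the members' products gave 2 calls among 12 measured of 13 listed, both higher in the Tak1/Casp8 livers. Over all genes 2.64% were called higher. This list too was chosen with earlier results known, and nothing is read from its count. Dio1, the deiodinase that activates thyroxine in liver, read 9.00, 9.72, 8.60 and 9.10 in the Tak1/Casp8 livers and 7.97, 7.25, 8.36 and 8.03 in the Tak1/Rip3 livers (1.20 ± 0.26 SE, limma adjusted p = 0.0228), a call lost without Tak1/Casp8 replicate 2 or Tak1/Rip3 replicate 1 or 4 (0.0530 to 0.0599) or without the least correlated array of each group (0.0625). The insulin receptor Insr, which GRB10 binds, differed by 0.45 ± 0.10 (limma adjusted p = 0.0299), a call lost without Tak1/Casp8 replicate 1, 2 or 3 or Tak1/Rip3 replicate 1 or 4 (up to 0.0895) and with its brightest probe set (0.136). Igf1r, also bound by GRB10, and the thyroid hormone receptor Thrb differed by -0.52 and 0.37 and did not pass (limma adjusted p = 0.0689 and 0.0759). Notch1 and Hes1, of the pathway that DLK1 acts on, differed by 0.11 and 0.01.

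Genes with profiles like those of Meg3 and Rian over the 8 arrays were sought by the root mean square difference of gene-centred log2 values. Members and unnamed transcripts (Gm, Rik, LOC, BC or AK symbols) were left out, so Meg3 and Rian could not be listed for each other. Closest to Meg3 among the remaining genes were Mmp12 (0.263), Ntrk2 (0.281), Prom1 (0.2915), Gdf10 (0.2915) and Nptx1 (0.293). Mmp12, a macrophage elastase, read 8.36, 8.14, 8.35 and 8.25 in the Tak1/Casp8 livers and 10.34, 10.16, 10.18 and 10.79 in the Tak1/Rip3 livers. Closest to Rian by the same measure were Krt20 (0.257), Parpbp (0.276), Ccr3 (0.292), Cdhr2 (0.292) and again Mmp12 (0.298). In all 9 of these genes the groups did not overlap and the Tak1/Casp8 livers were lower, which the measure selects for. With the brightest probe set Gdf10 differed by -0.22 in place of -1.51, Nptx1 by -0.64 in place of -1.48 and Cdhr2 by -0.56 in place of -1.65.

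Cell type markers were read beside the members, since fewer cells of a type and less RNA per cell cannot be told apart in whole liver. Over all genes 2.64% were called higher and 4.05% lower. The marker lists were chosen with earlier results known, so nothing is read from counts of passing markers. Hepatocyte markers were high in all livers, with array means of 13.53 to 13.60 in the Tak1/Casp8 livers and 13.42 to 13.53 in the Tak1/Rip3 livers, and 0 of 6 passed. They lay at percentiles 99.46 to 99.99 of level, near the top of the scale, so a small difference there is uncertain. Of the 6, 3 differed below 0 and 3 above. Tat differed most, by 0.50 (limma adjusted p = 0.0652), and passed in 7 of 20 alternative settings. Each of 6 measured dividing cell markers fell, with array means of 7.50 to 8.88 in the Tak1/Casp8 livers, against 9.65 to 10.44 in the Tak1/Rip3 livers. Of these the Cdk1 call was lost without Tak1/Casp8 replicate 1, 2 or 3 or Tak1/Rip3 replicate 1, 3 or 4 (limma adjusted p up to 0.0892) and with its brightest probe set (0.0799). With the brightest probe set Ccna2 differed by -0.06 in place of -1.93 and did not pass (limma adjusted p = 0.877). All 7 stellate cell and fibroblast markers had differences below 0 (median -0.36), of which 2 (Lrat and Reln) passed the test, with array means of 9.42 to 10.10 in the Tak1/Casp8 livers and 10.12 to 10.42 in the Tak1/Rip3 livers. Acta2 differed by -0.95 and did not pass (limma adjusted p = 0.116), and in Des (-0.36) the groups did not overlap but the test was not passed (0.172). The Reln call was lost without Tak1/Casp8 replicate 2, without any 1 of the Tak1/Rip3 arrays or without the least correlated array of each group (adjusted p up to 0.0944). Of 6 bile duct and progenitor markers 2 passed, Spp1 higher and Prom1 lower, with array means of 8.56 to 9.20 in the Tak1/Casp8 livers and 9.10 to 9.32 in the Tak1/Rip3 livers. Fetal liver markers all had differences below 0 and 4 of 5 passed, with array means of 7.41 to 8.52 in the Tak1/Casp8 livers and 9.82 to 10.90 in the Tak1/Rip3 livers, and share Igf2 and H19 with the imprinted list. The call of Igf2bp3 among them was lost without Tak1/Casp8 replicate 1 or 2, Tak1/Rip3 replicate 1, 3 or 4, or the least correlated array of each group (limma adjusted p up to 0.101). Of 3 measured B and plasma cell markers Cd79a and Ms4a1 were lower (-1.38 and -1.11) and Jchain higher. With the brightest probe set Cd79a and Ms4a1 differed by -0.44 and -0.16 and did not pass. Ms4a1 in every array, and Cd79a in 4 Tak1/Casp8 and 2 Tak1/Rip3 arrays, lay under the lower quartile, which limits their folds. Passing were 0 of 6 endothelial, 0 of 6 macrophage, 0 of 5 neutrophil, 0 of 5 T and NK cell and 0 of 4 erythroid markers. Among these, Cd68 (-0.41), Nkg7 (-0.32) and Cd8a (-0.21) lay below without overlap, as did 8.3% of all genes, and 0 lay above. Ly6g, Retnlg, Klrb1c and Epb42 lay under the lower quartile of every array, so little can be read from them. The part of these cell types in the differences of Meg3, Rian and Sgce was not tested.

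As checks of the labels, Casp8 averaged 9.97 ± 0.13 in the Tak1/Casp8 livers and 11.27 ± 0.13 in the Tak1/Rip3 livers, and Ripk3 averaged 7.90 ± 0.09 and 6.92 ± 0.38 (SD, n = 4 each). The all-gene fit called 1309 genes, of which 517 rose and 792 fell, and it called 765, 706 and 738 without Tak1/Casp8 replicate 2, Tak1/Rip3 replicate 1 and Tak1/Rip3 replicate 4. The correlation between any 2 arrays over genes lay between 0.975 and 0.993, and the arrays least like their own group were Tak1/Casp8 replicate 4 (0.985) and Tak1/Rip3 replicate 2 (0.987). Without that pair 6 of the 43 other imprinted genes were called and the called members were Meg3, Rian and Sgce. With the brightest probe sets the called members were Meg3 and Rian without Sgce, and with genes under the 50th percentile of level dropped Meg3 and Sgce, since Rian was not tested there. Without Tak1/Casp8 replicate 3 Plagl1 was called beside the 3. The members were selected on this contrast, so keeping or losing these member calls is a description and no support. The labels name separate mice but no litter, scan or hybridisation batch, so strain background, handling or scan, if it went with genotype, cannot be told apart from genotype.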

How the data were processed

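Liver RNA of 8 mice was read on 1 Affymetrix mouse gene array each. The deposited values are log2 intensities per probe set. The submitters' processing notes name RMA without a version. RMA subtracts background, aligns arrays and summarises probes, so shifts shared by most genes are largely removed. A small offset remained: the median over genes was 7.70 to 7.73 in the Tak1/Casp8 arrays and 7.77 to 7.83 in the Tak1/Rip3 arrays. The median over probe sets was 8.06 to 8.12 and 8.10 to 8.16, with overlap. The array files carry no detection call and no depth; the number of arrays limits precision. The sources used here give no genome build for the annotation.

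The platform annotation gave 206316 probe sets exactly 1 symbol, 3734 several and 13721 none. Old symbols were updated for 2587 symbols through a RefSeq table of GRCm38.p6, and the median over probe sets gave 19552 genes. The model held 1 term for genotype (limma 3.58.1, lmFit and eBayes, R 4.3.3, two-sided), with Benjamini-Hochberg adjustment over all genes and a threshold of 0.05. The test was tested on simulated data. Figures used matplotlib 3.10.9 in Python 3.11.15.

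The members and lists were chosen with earlier results of these data known. Named were the members, measured symbols between Dlk1 and Dio3, up to 4 genes of smallest adjusted p per list and every called imprinted gene. Igf2, H19 and Afp were also named, with the 5 genes most like Meg3 and the 5 most like Rian outside members and unnamed transcripts. Begain, Ppp2r5c, Zfp57, Trim28, Zhx2, Zbtb20, Notch1, Hes1 and the imprinted neighbours of members were named after their values were seen. Alternatives changed normalisation, the value per gene, dim-gene filters, the variance model, array weights, symbols and arrays.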

Additional observations from a re-analysis of the deposited data

Results flagged for a closer look

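Among 80 groups of 4 arrays checked, 4 held an array far from the other 3, which is the rate that chance gives (about 1 in 20), and none of them was a member. Igf2r in Tak1/Casp8 replicate 2 read 9.99, against 9.95 in the other arrays of the group. Cinp in Tak1/Rip3 replicate 3 read 8.68, against 9.17 to 9.24. Uhrf1 in Tak1/Rip3 replicate 1 read 8.47, against 8.12 to 8.14. Nptx1 in Tak1/Casp8 replicate 1 read 6.90, against 6.39 to 6.47.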

How the results depend on the processing

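The count of 1309 called genes was 758 with the brightest probe sets, 115 with the Welch test, and 706 to 1348 when each array was left out. The 7 other imprinted genes became 4 with the brightest probe sets, 1 (Ppp1r9a) with the Welch test, and 4 to 6 with each array left out. Differences below 0 were found in 5 of 9 members, in 3 with the brightest probe sets and in 2 of the 5 members kept when genes under the 50th percentile were dropped, which tests fewer genes, and in 5 to 6 with each array left out. Of 175 member values under the alternatives 170 moved by less than 1 SD. Part of these were fixed in advance, because the Welch test, the variance model and the dim-gene filters leave a difference as it is. The choice of probe sets likewise cannot move Rian, which has 1. The other 5 values, all with the brightest probe set, were Dlk1 0.29, Meg3 -2.39, Sgce 0.53, Mest 0.54 and Plagl1 0.04. The cause was not tested. The difference lay between -2.39 and -1.79 for Meg3, between -1.88 and -1.48 for Rian and between 0.53 and 1.29 for Sgce over the alternatives that tested them, but the Sgce call was lost with the brightest probe set and the Rian and Sgce calls with the Welch test. Such member calls describe genes that were selected on this contrast, and keeping or losing them is no support. Leaving out the least correlated array of each group was chosen after seeing the data. No paired analysis was possible because the labels give no number shared between the groups. Rian in Tak1/Casp8 livers and Dio3 in most arrays lay under the lower quartile of signal, which limits their folds.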
